A study of Mus musculus with 19 samples.

Results

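Lysosomes break down material delivered by endocytosis and autophagy, and they do so with soluble hydrolases, a small set of abundant membrane proteins and the V-ATPase, the proton pump that acidifies the lumen. In neurons the same pump also acidifies synaptic vesicles, so its subunits are abundant in brain. Many of these genes carry the CLEAR element in their promoters, a binding sequence of the transcription factor TFEB, which the kinase complex mTORC1 holds inactive in fed cells.

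Lysosomal genes were compared in brains of SCA3 transgenic and wild-type mice given either CCI-779 or placebo. SCA3, spinocerebellar ataxia type 3, is caused by a polyglutamine expansion in ataxin-3, and CCI-779 (temsirolimus) is an ester of rapamycin that inhibits mTOR. All mice were male, and CCI-779 was injected intraperitoneally at 20 mg/kg, 3 times a week for 6 weeks starting at 5 weeks of age, while control mice received placebo as often. The 19 arrays comprised 4 of wild type with placebo, 5 of SCA3 with placebo, 5 of wild type with CCI-779 and 5 of SCA3 with CCI-779. The promoter that drives the transgene was not given in the sources used here. Whether every array came from its own mouse is not in the labels. The p-values thus reflect the scatter among these arrays, some of which may be technical.

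The genes were taken by name: 35 listed hydrolases, membrane proteins and regulators, and every symbol beginning with Atp6v0, Atp6v1 or Atp6ap. Of the listed symbols, 34 had a probe set assigned to a single gene symbol (Cd63 had none), and 22 V-ATPase genes were added, giving 56 of the 18193 genes with such a probe set. They were read by 125 probe sets. A probe set was tested where its mean log2 intensity over the 19 arrays was at least 4, and a gene was read by its brightest tested probe set. By that rule 49 of the 56 genes were tested, among 10454 tested genes in all. Atp6v0c, the proteolipid of the membrane ring, had no probe set with a single symbol and is not analysed here.

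The 7 genes left out of the test were Naglu and Sgsh, both enzymes of heparan sulfate breakdown, and 5 V-ATPase isoforms, Atp6v0a4, Atp6v0d2, Atp6v1b1, Atp6v1c2 and Atp6v1e2. Isoforms a4 and B1 are known from acid-secreting kidney cells, d2 from osteoclasts and E2 from testis. On every array their brightest probe set lay between 1.95 (Atp6v0a4) and 2.90 (Sgsh) on the log2 scale, below the filter. Of 11 listed lysosomal markers, the 9 with a probe set were above the filter, among them Psap, Ctsb and Lamp1. These markers belong to the gene set themselves, so they are no separate check of it.

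Because TFEB is held inactive by mTORC1, the promoters were examined for the CLEAR core, TCACGTGA, and for the shorter E-box core inside it, CACGTG. Both are palindromes, so a match on 1 strand is a match on both, and every CLEAR core counts as an E-box core too. RefSeq promoters of build GRCm38.p6, covering 250 bases before and 50 after the transcript start, were matched by symbol for 47 of the 56 genes. There was no entry for Ctsb, Galns, Asah1, Atp6v0a2, Atp6v0d2, Atp6v1b2, Atp6v1c1, Atp6v1g1 and Atp6v1h. The CLEAR core was present in 8 of the 47 (17%) against 304 of 27025 genes in the whole table (1.12%). The E-box core was present in 17 of the 47 (36.2%) against 2187 genes (8.09%). Lamp1 had 4 E-box cores and no CLEAR core. The sequences below show the CLEAR core in capitals with 16 bases on either side, 5′ to 3′ on the gene's own strand, for the 8 genes that carry it.
Atp6v0d1: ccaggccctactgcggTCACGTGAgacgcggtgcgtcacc
Atp6v0e: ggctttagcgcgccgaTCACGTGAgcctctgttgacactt
Atp6v1a: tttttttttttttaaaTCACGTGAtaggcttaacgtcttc
Cln3: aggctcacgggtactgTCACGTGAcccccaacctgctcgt
Ctsa: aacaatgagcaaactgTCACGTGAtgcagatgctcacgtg
Ctsd: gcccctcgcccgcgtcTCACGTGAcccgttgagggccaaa
Gla: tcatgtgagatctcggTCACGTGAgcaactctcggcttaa
Mcoln1: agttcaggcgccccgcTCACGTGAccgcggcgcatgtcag

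In GRCm38.p6 these windows lie at chr8:105566045-105566084 on the minus strand for Atp6v0d1 and chr17:26676382-26676421 on the plus strand for Atp6v0e. Those of Atp6v1a (chr16:44139368-44139407), Cln3 (chr7:126583335-126583374), Ctsd (chr7:142387903-142387942) and Gla (chrX:134601177-134601216) are on the minus strand. Those of Ctsa (chr2:164833744-164833783) and Mcoln1 (chr8:3500457-3500496) are on the plus strand. Ctsa and Gla each held a second CLEAR core in the same promoter. The cores began from 228 bases before the transcript start (Gla) to 4 bases after it (Ctsa). A match is a description of the letters and does not show that a factor binds there.

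**Figure D1:**
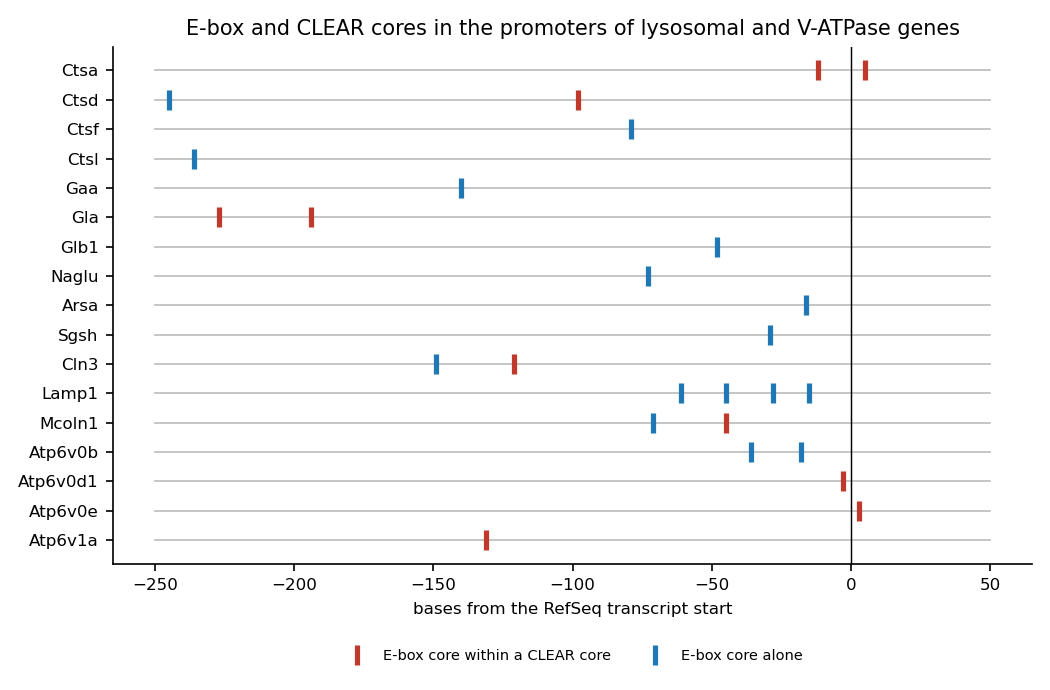
Positions of E-box cores in the 17 lysosomal and V-ATPase promoters that hold any, in bases from the RefSeq transcript start (vertical line), with those inside a CLEAR core in red and the others in blue. The 8 genes with a red mark include Atp6v0d1, whose core lies at the start, while Lamp1 holds 4 blue marks only.

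Under placebo, no lysosomal or V-ATPase gene passed the test between SCA3 and wild-type brain (limma, Benjamini-Hochberg adjusted p under 0.05 over all tested probe sets). None of the 10454 tested genes passed either (0%), and 2 of the 49 lysosomal genes against 5.32% of all genes had an unadjusted p under 0.05. The genes nearest to the threshold were the protease Ctsl, with a log2 difference of 0.21 ± 0.08 (SE) and adjusted p = 0.72, the lipase Lipa at -0.18 ± 0.08 and adjusted p = 0.85, and Atp6ap2 at -0.11 ± 0.05 and adjusted p = 0.88. Differences ran from -0.21 (Manba) to 0.21 (Ctsl), with a median of 0.05 over the 49 genes and 0.02 over all tested genes. For the protease Ctsd the 95% interval of the difference was -0.10 to 0.18, and for the membrane protein Lamp1 it was -0.04 to 0.23.

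A few of these genes passed the test for CCI-779, each with a small change. In SCA3 brain 2 of 49 rose (Atp6v0d1 and Atp6v1g2) and 5 fell (Asah1, Grn, Atp6ap2, Ids and Atp6v1g1), which is 4.08% and 10.2%, beside 11% higher and 6.09% lower among all tested genes. In wild-type brain 2 rose (Atp6v0d1 and Hexa) and 1 fell (Atp6ap2), which is 4.08% and 2.04%, beside 11.5% and 1.64% of all tested genes. Read by brightest probe sets, the largest drug estimate among the 49 genes was -0.42 (Asah1 in SCA3). On the same reading 659 of all tested genes (6.30%) moved by more than 0.5 in SCA3 and 626 (5.99%) in wild type. Other tested probe sets of the 49 genes moved further, to -2.45 (Atp6v0a1 in wild type, not passed) and 0.56 (Galc in SCA3, not passed). For Atp6v1a in SCA3 such a probe set passed at 0.53. The median change was -0.03 in SCA3 and 0.01 in wild type for the 49 genes, against 0.00 and 0.08 for all tested genes. After centring each array on its median intensity, 1 gene rose and 9 fell in SCA3, and 1 rose and 5 fell in wild type. Over all tested genes the same centring gave 877 higher and 1227 lower in SCA3 in place of 1151 and 637, and 574 and 549 in wild type in place of 1203 and 171.

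The arrays of the treated mice also differed from the placebo arrays in control probes. The mean level of 18 hybridisation spike-in probe sets, which report on the array step and not on the tissue, was 9.97 to 10.65 on the CCI-779 arrays and 10.88 to 11.60 on the placebo arrays, with no overlap. The 3′ minus 5′ difference of the GAPDH control probe sets, a sign of RNA or labelling quality, was -0.58 to -0.47 under placebo. Under CCI-779 it was 0.28 on wild-type replicate 1 and -0.44 to -0.28 on the other arrays. An array effect and the drug cannot be told apart for the drug comparisons, and when the spike-in level was added to the fit, a choice made after seeing the data, 0 of 49 lysosomal genes and 0 of all tested genes passed in either genotype. Within the treated groups, SCA3 replicates 2 and 5 and wild-type replicate 1 stood apart in principal components. SCA3 replicates 2 and 5 lay together at an end of their group's 5 values in 23 of 49 lysosomal genes (46.9%), as in 45.6% of all tested genes, and without them 1 lysosomal gene rose and 2 fell in SCA3.

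**Figure D2:**
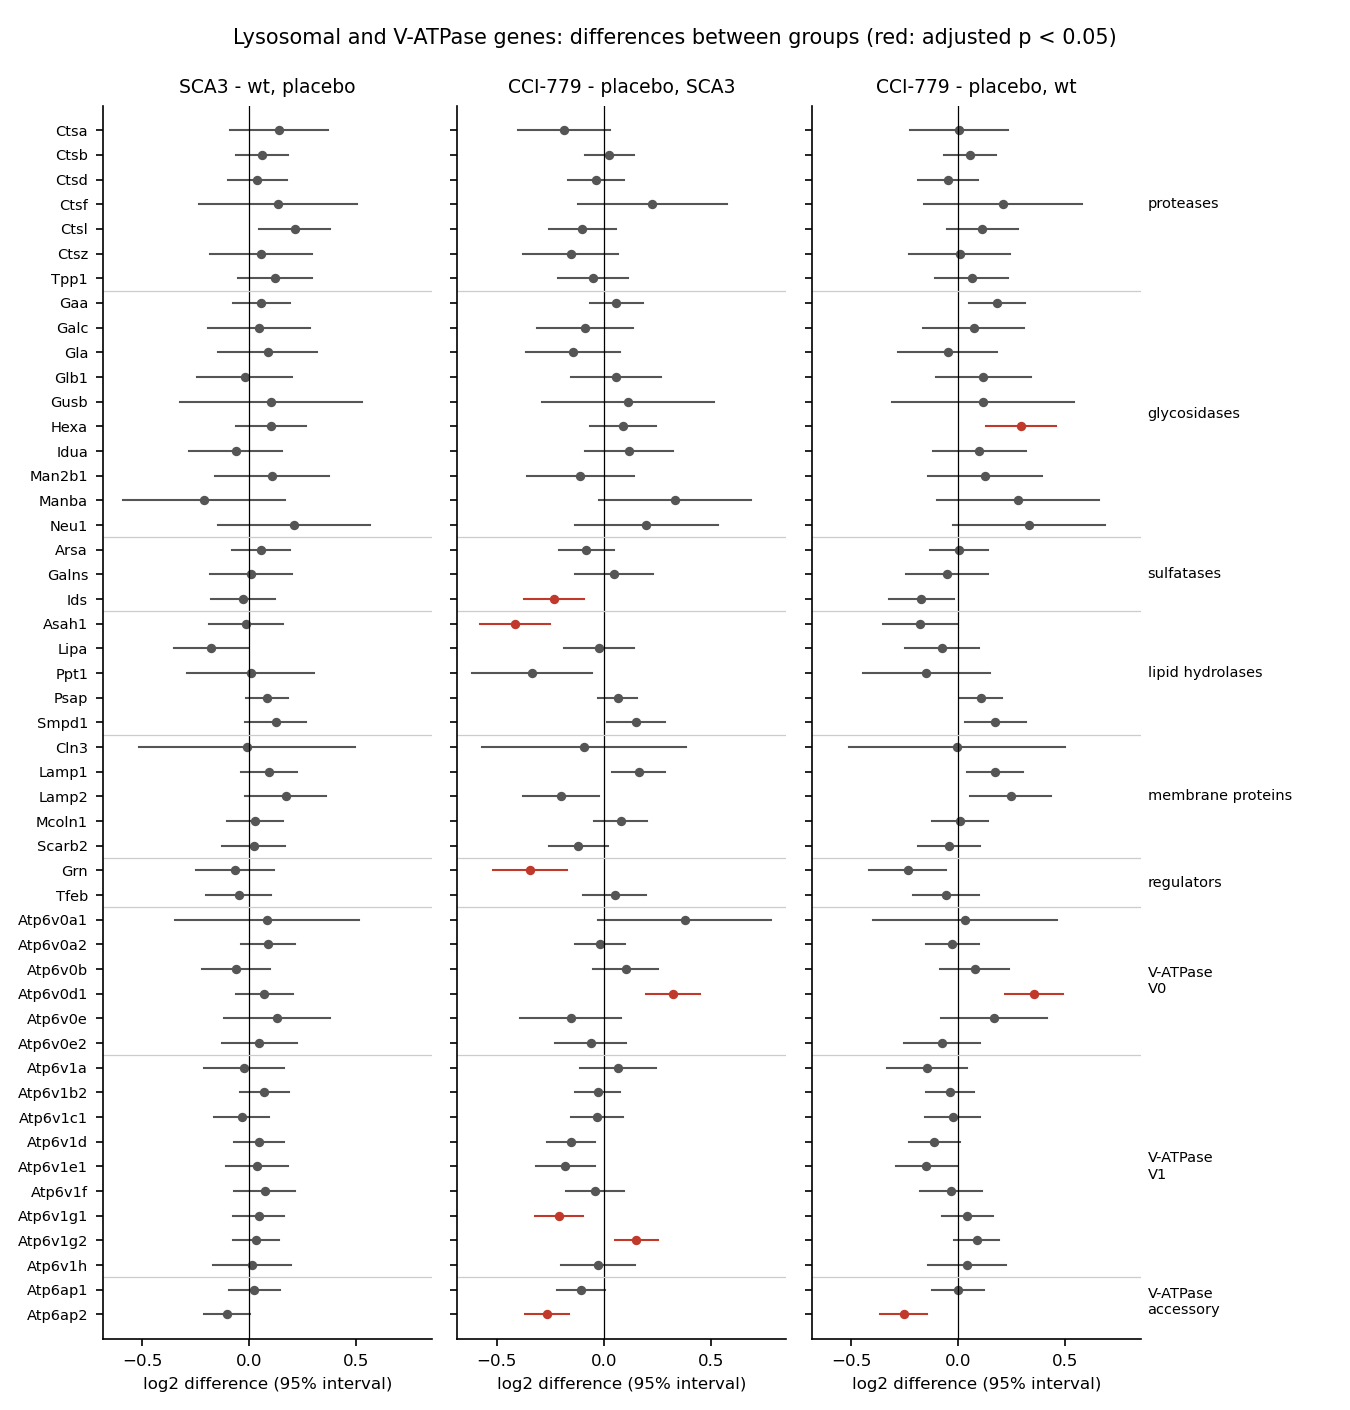
Log2 differences of the 49 tested genes, ordered by role, with 95% intervals, for SCA3 against wild type under placebo (left) and for CCI-779 against placebo in SCA3 (middle) and in wild type (right). Red marks an adjusted p under 0.05 by limma: none on the left, 7 genes in the middle and 3 on the right.

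Among the 7 tested proteases none passed under CCI-779 in either genotype. Ctsb, the most studied cysteine cathepsin, changed by 0.03 ± 0.05 in SCA3 and 0.05 ± 0.06 in wild type, and Ctsd, the main aspartic protease of the lysosome, by -0.04 ± 0.06 and -0.05 ± 0.07. For Ctsd the 95% intervals ran from -0.17 to 0.10 and from -0.19 to 0.09. The protease changes ran from -0.19 (Ctsa) to 0.23 (Ctsf) in SCA3 and from -0.05 (Ctsd) to 0.21 (Ctsf) in wild type.

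Of 10 tested glycosidases, Hexa alone passed, and only in wild type. Hexa encodes the alpha subunit of beta-hexosaminidase, which trims GM2 ganglioside. Its log2 intensity was 9.61, 9.62, 9.33 and 9.58 in the wild-type placebo arrays and 9.88, 10.05, 9.76, 9.77 and 9.68 in the wild-type CCI-779 arrays. All treated values were above all placebo values, and placebo replicate 3 was the lowest. The share of all tested genes that separate in this way is not given here. Separation, for Hexa and the genes below, therefore describes the gene alone and does not set it apart. The rise was 0.29 ± 0.08 (adjusted p = 0.023), and it did not pass without that replicate (0.22, adjusted p = 0.085). The call was lost in 7 of 33 settings, with estimates from 0.19 to 0.39: after centring (0.19), quantile normalization (0.20), with only the arrays compared (adjusted p = 0.091), with the replicate block (adjusted p = 0.079), and with the GAPDH or the spike-in covariate (adjusted p = 0.0995 and 0.51). In SCA3 the Hexa difference was 0.09 ± 0.07 (adjusted p = 0.44), and the interaction of genotype and drug was -0.20 ± 0.11 (adjusted p = 0.68). The sialidase gene Neu1, at 0.33 ± 0.17 in wild type, and the mannosidase gene Manba, at 0.33 ± 0.17 in SCA3, had larger estimates than Hexa with wider spreads and did not pass (adjusted p = 0.21 and 0.19).

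Ids fell in SCA3, the only call among 3 tested sulfatases. Ids encodes iduronate 2-sulfatase, which acts on heparan and dermatan sulfate. Its values were 13.59, 13.55, 13.49, 13.66 and 13.42 with placebo and 13.39, 13.17, 13.43, 13.38 and 13.17 with CCI-779. Treated replicates 2 and 5 were the lowest, and treated replicate 3 lay just above placebo replicate 5, so the groups overlapped. The change was -0.23 ± 0.07 in SCA3 (adjusted p = 0.027) and -0.17 ± 0.07 in wild type (adjusted p = 0.12). Of its 4 tested probe sets only the brightest passed, and without treated replicates 2 and 5, or without any of 5 single arrays, it did not pass (adjusted p up to 0.078 with a single array left out).

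Among 5 genes of lipid breakdown, Asah1 fell in SCA3. Asah1 encodes acid ceramidase, which splits ceramide into sphingosine and a fatty acid. Its values in SCA3 were 10.11, 10.07, 10.01, 10.17 and 10.14 with placebo and 9.81, 9.49, 9.72, 9.91 and 9.50 with CCI-779. Every treated value was below every placebo value, with replicates 2 and 5 again the lowest. In wild type the values were 10.02, 10.20, 10.01 and 10.23 with placebo and 9.94, 9.88, 9.97, 10.01 and 9.88 with CCI-779, where all treated arrays were below all placebo arrays, though treated replicate 4 and placebo replicate 3 both rounded to 10.01. The change was -0.42 ± 0.08 in SCA3 (adjusted p = 0.0023), -0.29 ± 0.07 without replicates 2 and 5 (adjusted p = 0.022), and -0.18 ± 0.08 in wild type (adjusted p = 0.16). The interaction was -0.24 ± 0.11 (adjusted p = 0.65), so a difference between genotypes was not shown. Ppt1, the palmitoyl-protein thioesterase, gave -0.34 ± 0.13 in SCA3 (adjusted p = 0.097) and Smpd1, acid sphingomyelinase, 0.15 ± 0.06 in SCA3 and 0.17 ± 0.07 in wild type (adjusted p = 0.12 and 0.10). Psap, the precursor of the saposins that present sphingolipids to their hydrolases, gave 0.06 ± 0.04 and 0.11 ± 0.05.

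None of the 5 tested membrane proteins passed. Lamp1, among the most abundant glycoproteins of the lysosomal membrane, had values of 11.71, 11.67, 11.66 and 11.72 in wild type with placebo and 11.90, 11.90, 11.83, 11.87 and 11.81 with CCI-779. These groups did not overlap, yet the difference of 0.17 ± 0.06 gave an adjusted p of 0.079, and in SCA3 the difference was 0.16 ± 0.06 (adjusted p = 0.071). Lamp2 also serves chaperone-mediated autophagy. Its brightest probe set gave estimates of opposite sign in the genotypes, -0.20 ± 0.08 in SCA3 and 0.24 ± 0.09 in wild type (adjusted p = 0.12 and 0.082). The 4 tested Lamp2 probe sets ran from -0.41 to -0.08 in SCA3 and from -0.13 to 0.24 in wild type, so not all changed sign. The brightest passed in SCA3 after centring and with the replicate block. In wild type it passed without SCA3 replicates 2 and 5 and at a threshold of 0.1. Its interaction of -0.44 ± 0.12 had the smallest p of the 49 genes for that term, with an adjusted p of 0.52. Mcoln1, the lysosomal calcium channel, gave 0.08 ± 0.06 and 0.01 ± 0.06, Scarb2, the receptor that carries glucocerebrosidase, gave -0.12 ± 0.07 and -0.04 ± 0.07, and Cln3, mutated in juvenile Batten disease, gave -0.09 ± 0.23 and -0.01 ± 0.24.

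Tfeb, the transcription factor of the CLEAR element, did not pass. Its differences were 0.05 ± 0.07 in SCA3 and -0.06 ± 0.07 in wild type, with 95% intervals of -0.09 to 0.20 and -0.21 to 0.09. Its values were held close to a single level, 13 of 19 arrays lying within 0.05 of a median of 7.09. In the list of other MiT/TFE factors and the genes that control them, 11 of 11 were tested, 3 fell in SCA3, where 6.09% of all tested genes fell, and 2 rose in wild type, where 11.5% rose. Those that fell were Rragd (-0.41 ± 0.10, adjusted p = 0.0098), Fnip1 (-0.27 ± 0.07, adjusted p = 0.013) and Flcn (-0.32 ± 0.09, adjusted p = 0.022), parts of the Rag GTPase and folliculin machinery at the lysosome. Those that rose were Mtor itself (0.31 ± 0.09, adjusted p = 0.036) and Rptor (0.31 ± 0.10, adjusted p = 0.045), a subunit of mTORC1.

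All 8 genes with a CLEAR core were tested, and their changes under CCI-779 were of both signs. Their median change was -0.07 in SCA3 and -0.0024 in wild type, from -0.19 to 0.32 and from -0.15 to 0.35. On brightest probe sets 1 of the 8, Atp6v0d1, passed, upward in both genotypes. For the 33 tested genes whose promoters lacked the core, the medians were -0.04 and 0.07, and the range was -0.34 to 0.38 and -0.26 to 0.33. Of these 33, 1 rose and 3 fell in SCA3, and 1 rose and 1 fell in wild type. The shares among all tested genes were 11% higher and 6.09% lower in SCA3, and 11.5% and 1.64% in wild type.

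Within the V-ATPase, Atp6v0d1 rose in both genotypes. By brightest probe sets, it rose by more than any other of the 49 genes that passed upward. Other probe sets passed with larger rises, for Atp6v1a in SCA3 (0.53) and for Gaa (0.37) and Grn (0.42) in wild type. Atp6v0d1 encodes the d1 subunit, which joins the membrane ring (V0) to the rotor of the catalytic part (V1). Wild-type values were 11.60, 11.43, 11.46 and 11.63 with placebo and 11.85, 11.92, 11.97, 11.93 and 11.75 with CCI-779. SCA3 values were 11.64, 11.48, 11.69, 11.49 and 11.70 with placebo and 11.95, 11.95, 11.88, 11.88 and 11.95 with CCI-779. All 10 treated arrays were above all 9 placebo arrays. The rise was 0.32 ± 0.06 in SCA3 (adjusted p = 0.0024) and 0.35 ± 0.06 in wild type (adjusted p = 0.0031), folds of 1.25 and 1.28, and the interaction was -0.03 ± 0.09 (95% interval -0.22 to 0.15). It kept the threshold with each single array left out and without SCA3 replicates 2 and 5 (0.30 ± 0.07, adjusted p = 0.024), and its estimate was never below 0.22 in SCA3 or 0.245 in wild type in the 33 settings tried. With the spike-in covariate the rise was 0.22 ± 0.11 in SCA3 and 0.25 ± 0.12 in wild type and did not pass (adjusted p = 0.47 and 0.65), its SE being larger than in the fit without that covariate.

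Read by brightest probe sets, Atp6v0d1 was the only gene with a matched promoter that passed and carried a CLEAR core; Asah1 and Atp6v1g1 had no promoter entry. Atp6v1a, which also carries the core, passed on its other probe set, 1422508_at, in both genotypes. The Atp6v0d1 promoter is shown from 250 bases before the transcript start to the end of the core, with the core in capitals (chr8:105566061-105566314, minus strand, GRCm38.p6, from RefSeq). It is shown because the core spans the start itself and no second E-box core was found.
Atp6v0d1 promoter: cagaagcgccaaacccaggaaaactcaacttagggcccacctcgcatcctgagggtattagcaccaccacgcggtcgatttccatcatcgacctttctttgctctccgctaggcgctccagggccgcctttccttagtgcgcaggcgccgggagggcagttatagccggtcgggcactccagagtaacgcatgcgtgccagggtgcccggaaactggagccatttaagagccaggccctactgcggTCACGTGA

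On its brightest probe set, 1437688_x_at, the accessory subunit gene Atp6ap2 fell in both genotypes. It encodes the (pro)renin receptor, which is needed for V-ATPase assembly. Wild-type values were 14.09, 14.20, 14.18 and 14.29 with placebo and 13.96, 13.90, 13.92, 13.96 and 13.93 with CCI-779. SCA3 values were 14.06, 14.10, 14.01, 14.20 and 14.05 with placebo and 13.82, 13.78, 13.91, 13.77 and 13.82 with CCI-779. No treated array reached a placebo array. The change was -0.26 ± 0.05 in SCA3 (adjusted p = 0.0022) and -0.26 ± 0.05 in wild type (adjusted p = 0.0055), with an interaction of -0.01 ± 0.07. A second probe set, 1439456_x_at, fell with it (-0.27 ± 0.05 and -0.22 ± 0.06, adjusted p = 0.0034 and 0.019), whereas 1423662_at gave 0.11 ± 0.07 and 0.17 ± 0.08 and did not pass. Both probe sets that fell end in _x_at, a kind described below, while 1423662_at, with estimates of the other sign, ends in a plain _at. The direction thus depended on the probe set. The mean over the 3 probe sets did not pass in wild type.

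The G subunit of the peripheral stalk has a ubiquitous isoform, Atp6v1g1, and a neuronal isoform, Atp6v1g2, and in SCA3 they moved in opposite directions. Atp6v1g1 values in SCA3 were 12.51, 12.64, 12.53, 12.50 and 12.57 with placebo and 12.33, 12.22, 12.44, 12.45 and 12.28 with CCI-779. All treated values were lower, replicates 2 and 5 most so, and the change was -0.21 ± 0.05 (adjusted p = 0.015) beside 0.04 ± 0.06 in wild type. Its interaction was -0.25 ± 0.08 (adjusted p = 0.54), the call was lost without replicates 2 and 5, and its other tested probe set gave 0.06 ± 0.08. Atp6v1g2 values in SCA3 were 12.59, 12.59, 12.66, 12.59 and 12.59 with placebo and 12.71, 12.75, 12.76, 12.70 and 12.84 with CCI-779. The groups did not overlap, and the rise was 0.15 ± 0.05 (adjusted p = 0.039) beside 0.08 ± 0.05 in wild type (adjusted p = 0.27). The estimate stayed between 0.13 and 0.17 with a single array left out, although 7 of these settings put the adjusted p above the threshold (up to 0.0996). It was 0.12 without replicates 2 and 5 and 0.09 after centring, and passed in neither (adjusted p = 0.18 and 0.25).

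**Figure D3:**
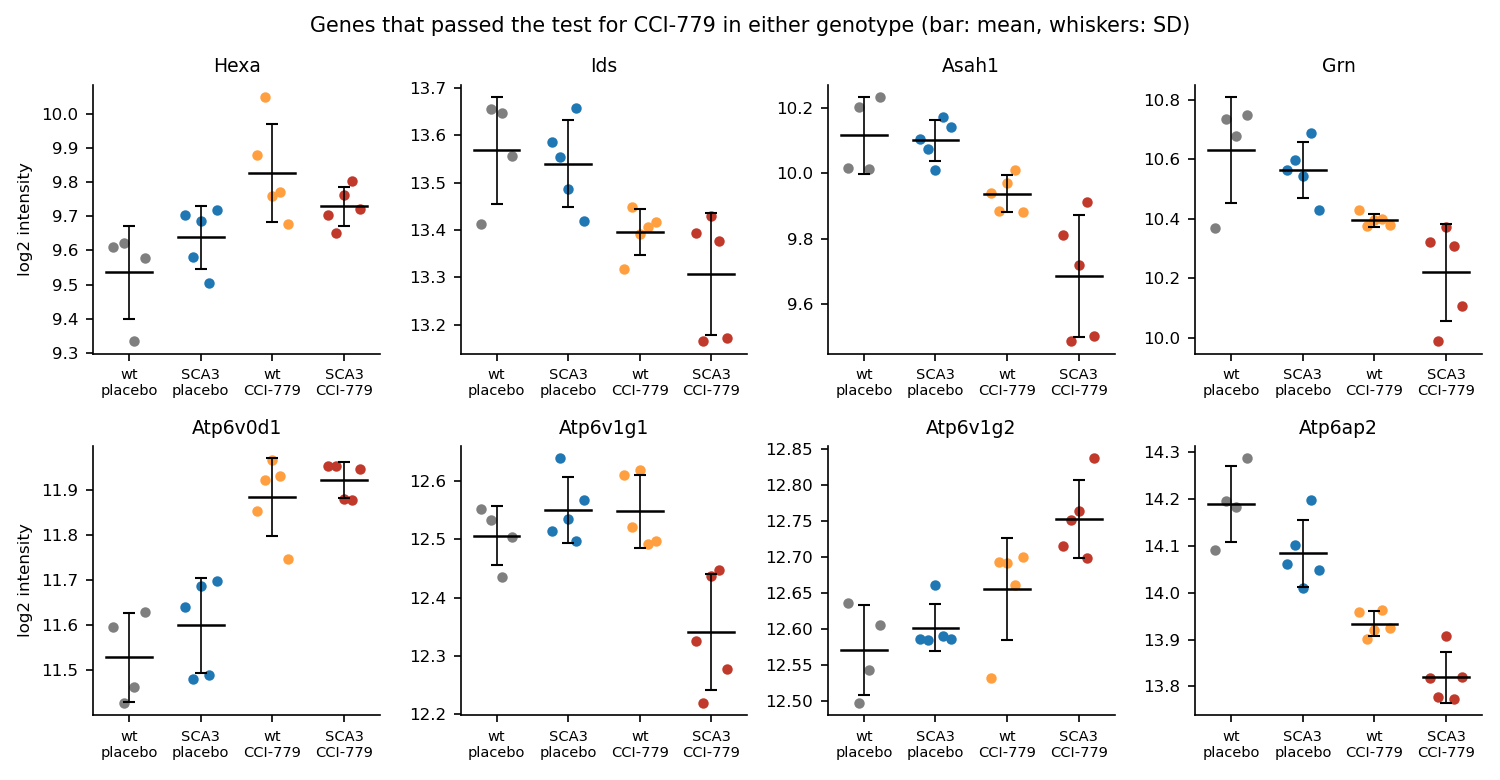
Log2 intensity of the 8 genes that passed the test for CCI-779 in SCA3, in wild type or in both, with a point for each array, a bar at the group mean and whiskers of 1 SD (n = 4 wild-type placebo arrays, 5 in each other group). Treated and placebo arrays separate in both genotypes for Atp6v0d1, Atp6ap2 and Asah1, of which the former pair passed in both, and the lowest Ids, Asah1 and Grn points are SCA3 replicates 2 and 5. The share of all tested genes that separate in this way is not given here.

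No other subunit gene passed on its brightest probe set. Over the 17 tested V-ATPase genes, 2 rose and 2 fell in SCA3, and 1 rose and 1 fell in wild type. Among all tested genes 11% rose and 6.09% fell in SCA3, and 11.5% rose and 1.64% fell in wild type. The mean log2 level over the 17 tested V-ATPase genes was 11.86 ± 0.05 (SD, n = 4) in wild-type placebo, 11.89 ± 0.04 (n = 5) in SCA3 placebo, 11.86 ± 0.02 (n = 5) in wild-type CCI-779 and 11.88 ± 0.03 (n = 5) in SCA3 CCI-779. That of the 32 other genes was 9.17 ± 0.07, 9.21 ± 0.03, 9.22 ± 0.04 and 9.18 ± 0.03 in the same order. The ranges of the 4 groups overlapped for both sets.

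**Figure D4:**
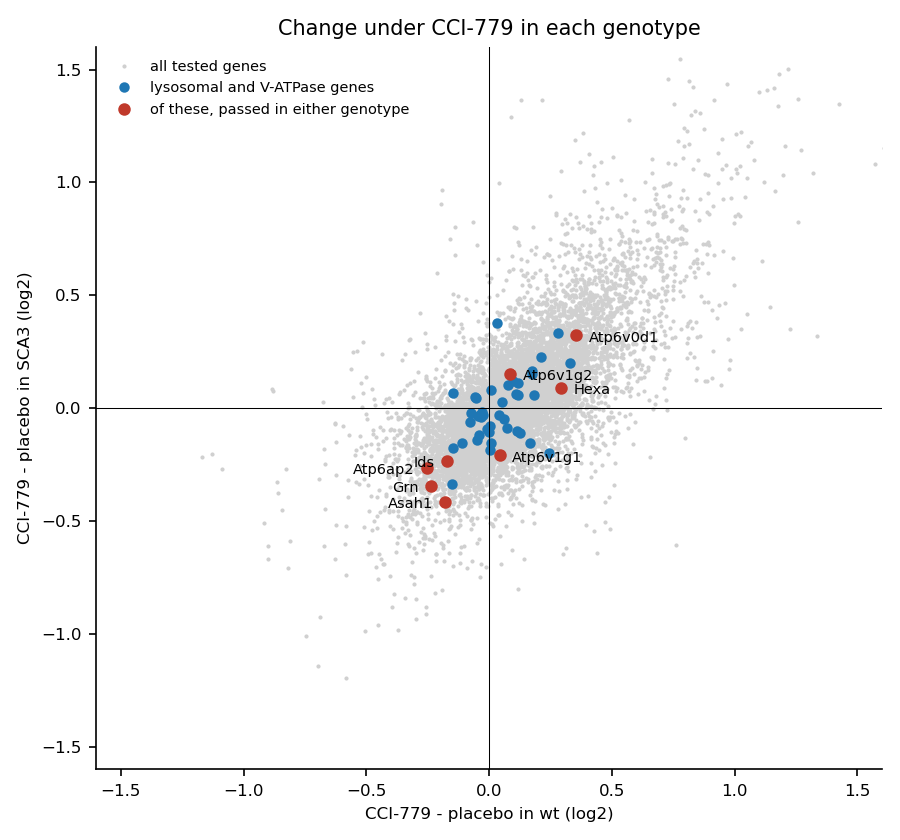
Log2 change under CCI-779 in wild type (horizontal) against SCA3 (vertical) for all tested genes (grey), the 49 lysosomal and V-ATPase genes (blue) and the 8 of them that passed in either genotype (red), on axes cut at 1.6. The 49 genes lie near the origin, with 35 of 49 of the same sign in both genotypes.

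The drug comparisons of the genotypes use separate arrays, apart from a shared estimate of spread. Of the 49 genes 35 (71.4%) had the same sign in both, as did 72.1% of all tested genes, and Pearson's r across the 49 genes was 0.66, against 0.71 across all tested genes. Both drug groups share the lower spike-in level given above. By brightest probe sets, the number called in the same direction in both was 2 of 49 (4.08%), against 714 of all tested genes (6.83%). The 2 were Atp6v0d1 and Atp6ap2, the latter on an _x_at probe set.

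Probe sets of the same gene did not always move together. The share of all tested genes whose probe sets disagree is not given here. The counts of such genes below therefore do not set the lysosomal and V-ATPase genes apart. Of the 25 genes with several tested probe sets, 8 had probe sets with different calls in SCA3 (Grn, Gaa, Atp6v1a, Atp6ap2, Atp6v1d, Atp6v1e1, Atp6v1g1 and Ids) and 5 in wild type (Grn, Gaa, Atp6v1a, Atp6ap2 and Atp6v1e1). Estimates differed in sign among the probe sets of 12 of the 25 genes in SCA3 and of 17 in wild type, which adds Atp6v0a1, Atp6v0b, Atp6v1c1, Atp6v1h, Ctsb, Ctsz, Galc, Lamp2, Man2b1, Mcoln1, Psap, Scarb2 and Smpd1 to those named. Over all 90 tested probe sets, 5 rose and 9 fell in SCA3 (15.6%, against 15.2% of all tested probe sets) and 5 rose and 3 fell in wild type (8.89%, against 11.9%). Probe sets whose name ends in _x_at contain probes that may match other transcripts. Of 9 such probe sets here 4 fell and none rose in SCA3, and among all tested _x_at probe sets 16% fell and 4.68% rose, whereas 3.33% of those ending in a plain _at fell and 10.7% rose.

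Grn, which encodes progranulin, a secreted protein that reaches lysosomes and sustains their hydrolases, gave calls in both directions. The brightest probe set, 1438629_x_at, read 10.57, 10.60, 10.54, 10.69 and 10.43 in SCA3 with placebo and 10.32, 9.99, 10.37, 10.31 and 10.11 with CCI-779, a fall of -0.34 ± 0.08 (adjusted p = 0.0096). The plain probe set 1448148_at read 8.32, 8.28, 8.03, 8.37 and 8.34 with placebo and 8.72, 8.46, 8.45, 8.67 and 8.54 with CCI-779, a rise of 0.30 ± 0.08 (adjusted p = 0.014). Neither pair of groups overlapped, so the same arrays gave a fall and a rise for the same gene. The second _x_at probe set, 1456567_x_at, gave -0.32 ± 0.09 in SCA3 (adjusted p = 0.023). In wild type the changes were -0.24 ± 0.09 (adjusted p = 0.079), 0.42 ± 0.08 (adjusted p = 0.0042) and -0.19 ± 0.09 (adjusted p = 0.18) in that order. Without SCA3 replicates 2 and 5 the fall in SCA3 did not pass (adjusted p = 0.094), while 1448148_at did (0.35 ± 0.09, adjusted p = 0.033). These arrays gave no single direction for Grn.

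For Atp6v1a, the catalytic A subunit, the brightest probe set 1450634_at gave 0.07 ± 0.08 in SCA3 and -0.15 ± 0.09 in wild type and did not pass. The other, 1422508_at, read 12.11, 11.89, 11.93 and 11.94 in wild type with placebo and 12.41, 12.34, 12.33, 12.26 and 12.18 with CCI-779. In SCA3 it read 12.28, 12.02, 12.18, 12.17 and 12.10 with placebo and 12.69, 12.91, 12.35, 12.48 and 12.94 with CCI-779. Neither comparison overlapped, and the rise was 0.53 ± 0.10 in SCA3 (adjusted p = 0.0022) and 0.33 ± 0.10 in wild type (adjusted p = 0.043). SCA3 replicates 2 and 5 were the highest, and without them the rise in SCA3 was 0.36 ± 0.08 (adjusted p = 0.021). After centring each array, the wild-type rise did not pass (adjusted p = 0.14).

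Gaa, acid alpha-glucosidase, which degrades lysosomal glycogen, showed the same split. The brighter 1436849_x_at gave 0.06 ± 0.06 in SCA3 and 0.18 ± 0.06 in wild type (adjusted p = 0.54 and 0.064), and 1419428_a_at rose by 0.31 ± 0.08 and 0.37 ± 0.09 (adjusted p = 0.021 and 0.014). The values of the latter in wild type were 10.22, 10.01, 10.07 and 10.14 with placebo and 10.52, 10.44, 10.48, 10.56 and 10.40 with CCI-779, without overlap. In SCA3 its call was lost without replicates 2 and 5 (0.15 ± 0.06, adjusted p = 0.18).

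Atp6v0a1, the a1 subunit found on synaptic vesicles, gave values that differed widely between arrays of the same group. Its brightest probe set, 1417632_at, read 10.21, 11.58, 10.63, 10.60 and 11.44 in SCA3 with CCI-779 and 10.41 to 10.75 in SCA3 with placebo. Replicates 2 and 5 were the highest of all 19 arrays, and the difference of 0.38 ± 0.19 (adjusted p = 0.20) became -0.03 ± 0.11 without them. Another probe set, 1425227_a_at, read 9.20 to 9.75 in SCA3 with placebo and 7.70, 8.73, 8.85, 7.30 and 9.15 with CCI-779. In wild type it read at least 9.69 with placebo and 2.63, 9.09, 8.17, 7.87 and 9.18 with CCI-779, replicate 1 being the array at 2.63. All treated values were below all placebo values in both genotypes, yet the spread was wide and the differences of -1.18 ± 0.86 and -2.45 ± 0.91 did not pass (adjusted p = 0.38 and 0.086). Without SCA3 replicates 2 and 5 and wild-type replicate 1 it fell in both, by -1.58 ± 0.32 (adjusted p = 0.0076) and -1.26 ± 0.31 (adjusted p = 0.019), as did the probe set 1460650_at (-0.65 ± 0.15 and -0.50 ± 0.14, adjusted p = 0.013 and 0.036).

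**Figure D5:**
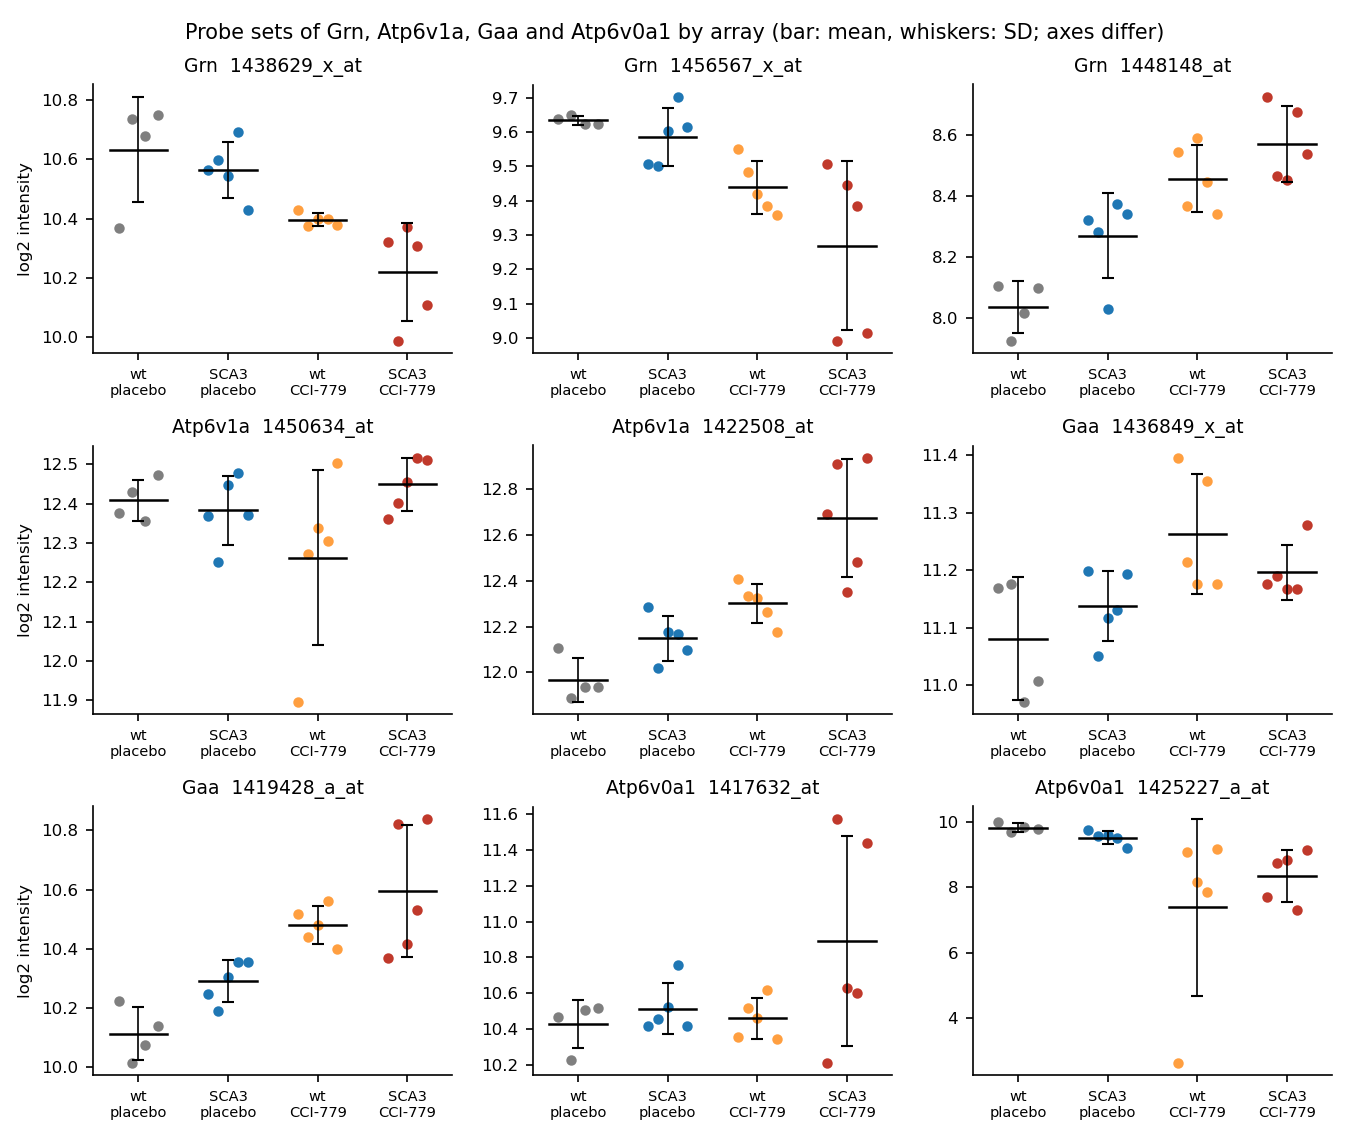
Log2 intensity by array for probe sets of Grn, Atp6v1a, Gaa and Atp6v0a1, with the group mean as a bar and whiskers of 1 SD (n = 4 wild-type placebo arrays, 5 in each other group; the axes differ). The 3 Grn panels show a fall for the _x_at probe sets and a rise for 1448148_at, and the last panel shows the wild-type CCI-779 array at 2.63.

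Under CCI-779, none of the 49 genes passed between SCA3 and wild type, beside 2 of all tested genes (0.0191%), and 7 of the 49 had an unadjusted p under 0.05 against 18.1% of all genes. The smallest adjusted p values were those of Atp6v1g1 (-0.21 ± 0.05, adjusted p = 0.14), Asah1 (-0.25 ± 0.08, adjusted p = 0.18) and Lamp2 (-0.27 ± 0.08, adjusted p = 0.18). The interaction of genotype and drug gave none of 49 and none of all tested genes (0%), with 3 of the 49 (6.12%) at an unadjusted p under 0.05 (Lamp2, Atp6v1g1 and Asah1), beside 8.30% of all genes. All 3 estimates were negative, as were 67.5% of those of all tested genes, and SCA3 replicates 2 and 5 enter each of them.

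Other lysosomal genes came from 6 lists chosen with earlier results of these data known, the MiT/TFE list above among them. Over the 88 tested genes of these lists 7 rose (7.95%) and 10 fell (11.4%) in SCA3, beside 11% and 6.09% of all tested genes, and 8 rose (9.09%) and 3 fell (3.41%) in wild type, beside 11.5% and 1.64%. Of 15 tested further hydrolases 3 fell in SCA3, Npc2, which hands cholesterol to the membrane (-0.38 ± 0.09), the microglial protease Ctss (-0.34 ± 0.10) and the peptidase Dpp7 (-0.62 ± 0.19). In wild type Ctss fell too (-0.34 ± 0.10), and 3 rose, the acid phosphatase Acp2 (0.39 ± 0.10), Hgsnat (0.42 ± 0.11), which acetylates heparan sulfate, and the arylsulfatase Arsb (0.39 ± 0.12). Of 20 tested further membrane proteins 4 rose and 2 fell in SCA3, among them the lipid transporter Abca2 (0.90 ± 0.22), the cobalamin exporter Lmbrd1 (-0.29 ± 0.08) and the microglial protein Laptm5 (-0.57 ± 0.13). The amino acid transporter Slc36a1 rose in both genotypes (0.33 ± 0.11 and 0.56 ± 0.12), and in wild type the chloride-proton exchanger Clcn7 rose too (0.36 ± 0.09).

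Of 17 tested genes of the mannose 6-phosphate route and sorting, 3 rose and 1 fell in SCA3 and 1 rose in wild type. For this list and those below, the shares among all tested genes were 11% higher and 6.09% lower in SCA3. In wild type they were 11.5% and 1.64%. The clathrin adaptor subunit Ap1g1 rose in both (0.57 ± 0.15 and 0.62 ± 0.16), the adaptor Gga1 rose in SCA3 (0.32 ± 0.08), and the retromer subunit Vps29 fell in SCA3 (-0.29 ± 0.06). Among 11 tested V-ATPase assembly genes none passed in SCA3 and 1 fell in wild type (Tbc1d24, -0.35 ± 0.10). Of 14 tested fusion and tethering genes 1 fell in each, the HOPS subunit Vps41 in SCA3 (-0.48 ± 0.13) and the SNARE Vti1b in wild type (-0.22 ± 0.06).

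Microglia are rich in lysosomes, and the mean level of their tested markers was lower on the treated arrays. Of 12 tested microglia and macrophage markers 6 fell in SCA3 and 4 in wild type (beside 6.09% and 1.64% of all tested genes), and none passed upward. Changes of the 12 ran from -1.20 to 0.42 in SCA3 and from -0.62 to 0.25 in wild type, with medians of -0.37 and -0.36. Their mean log2 level was 8.13 to 8.37 on placebo arrays and 7.62 to 8.10 on CCI-779 arrays, without overlap. The spike-in level separated the same arrays, and the share of all tested genes that separate in this way is not given here. Tmem119, Itgam, Trem2 and Cd68 were below the filter, and Ctss and Laptm5 belong to both lists. Of 11 tested oligodendrocyte markers 5 fell in SCA3 and none in wild type, and of 7 tested markers of meninges 3 rose in SCA3 and 1 in wild type. Of 12 tested neuron markers 3 rose and 1 fell in SCA3, and 2 rose and 1 fell in wild type. Of 9 tested astrocyte markers 1 rose in SCA3 and 2 in wild type. Among all tested genes 11% rose in SCA3 and 11.5% in wild type. In bulk tissue fewer cells of a type and less RNA per cell cannot be told apart. The part of these shifts in the falls of Asah1, Npc2, Ctss and Laptm5 was not tested. Nor was it tested for the falls of the brightest Ids probe set and the _x_at probe sets of Grn.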

How the data were processed

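RNA from mouse brain was hybridised to 19 single-colour Affymetrix arrays. The authors deposited a linear intensity for each probe set; the submitters' processing notes name GCRMA, with its version not given in the sources used here. GCRMA draws dim probe sets toward a common floor, so small changes there are compressed. Of 45101 probe sets, 64 controls were left out, and of the other 45037, 34945 had 1 gene symbol, 932 several and 9160 none in the platform annotation; the Entrez identifiers of 34741 matched RefSeq and changed no symbol. Values were log2-transformed without a pseudocount. Probe sets with a mean of at least 4 (20473, 45.5%) were fitted with limma 3.58.1 in R 4.3.3: 4 group means, 5 contrasts, 15 residual degrees of freedom, two-sided, Benjamini-Hochberg over all tested probe sets, threshold 0.05. The scripts were tested on simulated data. The number of arrays limits the precision. No 2 arrays held identical values.

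The members and lists were chosen with earlier results of these data known. Genes named are those past the threshold, the next 3 by p where under 3 passed, a fixed set (Tfeb, Lamp1, Lamp2, Ctsd, Grn, Atp6v1a, Atp6v0c), genes whose probe sets disagreed in sign or call, and the 3 of smallest p in the further lists; others were named after their values were seen. The wild-type CCI-779 array without a number in its label is called replicate 1. Alternatives were renormalization, centring, filters, another prior, array weights, only the arrays compared, probe set means, a replicate block, arrays left out, a threshold of 0.1, and 2 covariates added after seeing the data.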

Additional observations from a re-analysis of the deposited data

Results flagged for a closer look

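In 22 of 196 sets of values (49 genes in 4 groups), a single array lay far from the rest by Dixon's ratio. This ratio is the gap to the nearest array over the group's range. Normally distributed values would give about 9.8 such sets. The share among all tested genes is not given here, and values held near a single level raise the ratio, so an excess in these genes was not shown. The 22 sets fall in 16 genes, and wild-type CCI-779 replicate 1 was the array in 4 of them, more often than any other. That replicate was low for Atp6v0e2 (11.59 against 12.05 to 12.10, ratio 0.900), Atp6v1g2 (12.53 against 12.66 to 12.70, 0.770) and Gla (0.890), and high for Manba (6.06 against 5.13 to 5.39, 0.724).

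Other arrays of that group stood out for Gusb (replicate 4, 0.933), Idua (replicate 2, 0.942) and Galns (replicate 3, 0.956). In SCA3 with CCI-779 they were Gaa (replicate 5, 0.797), Man2b1 (replicate 4, 0.725) and Galns (replicate 5, 0.716). In wild type with placebo they were Hexa (replicate 3, 9.33 against 9.58 to 9.62, 0.849), Mcoln1 (replicate 3, 0.909) and Atp6v0a2 (replicate 2, 0.939). The low Hexa array is the one without which its rise in wild type was lost.

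In SCA3 with placebo the ratios were 0.843 for Galc and 0.868 for Lipa (replicate 4), 0.793 for Gla, 0.797 for Galns and 0.834 for Mcoln1 (replicate 1), 0.784 for Gusb and 0.821 for Atp6v0b (replicate 5), 0.731 for Lamp2 (replicate 2) and 0.944 for Atp6v1g2 (replicate 3). Several of these genes were held at nearly a single level on most arrays: 13 of 19 Galns values, 12 of 19 Gusb and Idua values and 10 of 19 Gla values lay within 0.05 of the gene's median, so a small step gives a high ratio.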

How the results depend on the processing

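The counts of lysosomal genes past the threshold under placebo, between genotypes under CCI-779 and for the interaction were 0 in every setting tried. The drug counts, 7 in SCA3 and 3 in wild type, ranged from 5 to 10 and from 2 to 6 with a single array left out (6 without wild-type placebo replicate 1). Without SCA3 replicates 2 and 5 they were 3 and 5, and 3 in SCA3 without wild-type replicate 1 as well. In wild type the count was 6 after centring and 6 with array weights. At a threshold of 0.1 the counts were 11 and 7, and with the spike-in covariate 0 and 0. With the replicate number as a block they were 9 and 2, but the numbers do not pair the arrays: same-numbered deviations correlated from -0.31 to 0.29, and 4 of 18 arrays correlated best with their own number. Signs changed only for estimates that did not pass. Tfeb in SCA3 was -0.0088 after centring, -0.018 without SCA3 CCI-779 replicate 2 (range -0.018 to 0.088 with a single array left out), and -0.026 without replicates 2 and 5, also with wild-type replicate 1 left out. Atp6v1a was 0.094 in wild type as a mean of its probe sets, -0.0023 in SCA3 with the spike-in covariate and 0.022 in wild type with the GAPDH covariate, with which Ctsd was 0.0044 in SCA3 and 0.016 in wild type. For each change the cause was not tested.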
